A study of Mus musculus with 4 samples.

Results

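The cytoplasmic ribosomal protein genes encode the protein part of the ribosome in the cytosol, and their mRNA levels were compared between undifferentiated and retinoic acid treated mouse ESCs. The members were all gene symbols of the count files that are built as Rpl or Rps, a number and at most one of the letters a, x, y and l, together with Rpsa, Rplp0, Rplp1 and Rplp2. This gave 81 of 24421 symbols, 49 of the large and 32 of the small subunit. The choice used names alone and no measured value. The Illumina TruSeq libraries of R1, an established mouse ESC line, came from 2 states with 2 biological replicates each. Undiff is R1 cells in the undifferentiated state. The methods describe these as cells held in growth medium with leukaemia inhibitory factor, a cytokine that keeps ESCs undifferentiated, whereas the labels call their tissue embryoid bodies. Day4 is embryoid bodies, which are aggregates of differentiating ESCs, that were grown for 4 days without the factor and then given retinoic acid (RA), a vitamin A metabolite, for 4 more days. The dose of RA is 2 µM in the methods and in the design text and 2 mM in the labels' protocol. Undiff and Day4 thus differ in RA, in the cytokine, in the culture form and in the time in culture, and these cannot be told apart here.

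A ribosome is built from ribosomal RNAs and about equal numbers of each ribosomal protein, so that the cell makes these proteins in matched amounts. The large subunit joins amino acids and releases the growing chain through an exit tunnel, and the small subunit reads the mRNA. Most of these genes have short mRNAs whose 5′ ends start with a run of pyrimidines, the terminal oligopyrimidine (TOP) motif, through which mTORC1 and LARP1 control their translation. A few have paralogues, some of which are known for expression in testis or muscle. Pluripotent cells are known for active ribosome assembly.

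The libraries held 32099074 to 47730944 counts on genes, and 19891 symbols had a count in at least 1 library. The labelled states were checked against marker genes. All 10 pluripotency markers, such as Pou5f1 and Nanog, were DEGs that fell (background 20.6% of all genes). Their summed level was taken in counts scaled to a library total of 1000000 (CPM). It went from 4003 and 4072 CPM in Undiff to 24.9 and 20.6 CPM in Day4. Markers of other cell types moved too. Of 10 fibroblast markers 9 passed the adjusted p threshold upwards (background 36.7% of all genes), and Thy1 fell, at a log2 fold change of -3.80. Their summed level was at most 113 CPM in Undiff and 1868 and 2030 CPM in Day4. Of 10 endoderm markers 9 were higher in Day4 (same background), and Lamb1 was lower, at a log2 fold change of -0.46. The endoderm markers summed to 296 and 307 CPM in Undiff against 870 and 873 CPM in Day4. Afp was at 0 in both Undiff libraries. Of 12 neural markers 11 were counted well enough to be tested. At the adjusted p threshold 4 were higher and 7 lower (background 36.7% and 35.2% of all genes). The 12 summed to 338 and 346 CPM in Undiff against 177 and 188 CPM in Day4. The blood markers summed to 2.77 and 2.81 CPM in Undiff and to 117 and 143 CPM in Day4, where Ptprc was at 0. Fewer cells of a type and less RNA per cell cannot be told apart in such bulk libraries. The part of this change in cell types in the results on ribosomal protein genes was not tested.

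As a set, the ribosomal protein genes took a smaller share of the Day4 libraries. They held 6.37% and 6.34% of the counts on genes in Undiff, and 5.56% and 5.64% in Day4. The 2 states did not overlap, and the mean went from 6.36% ± 0.0221 (SD, n = 2) to 5.60% ± 0.0613 (SD, n = 2), a difference of -0.756 percentage points. With 2 libraries against 2, an exact two-sided permutation test cannot give a p below 0.333, which is the value here. The large subunit genes went from 3.74% to 3.24% and the small subunit genes from 2.62% to 2.36%. The libraries also differed in the fragments that fell on no annotated gene, which in Undiff were 12.1% and 13.2% of those aligned uniquely and 7.50% and 7.74% in Day4. Taken over all uniquely aligned fragments, the members held 5.48% and 5.38% in Undiff against 5.04% and 5.10% in Day4, so that the difference shrank to -0.366 points, still without overlap.

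**Figure D1:**
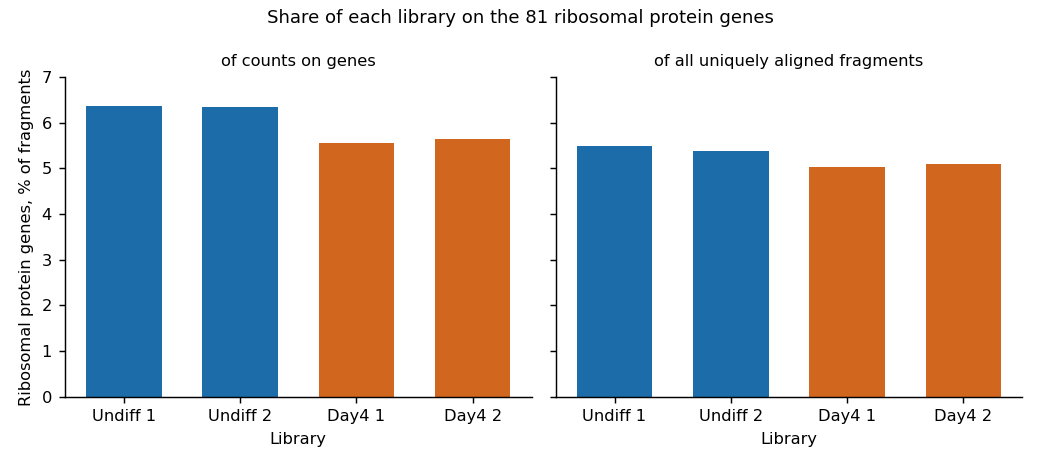
Share of each library's fragments on the 81 ribosomal protein genes, as percent of counts on genes (left) and of all uniquely aligned fragments (right). Each bar is 1 library, blue for Undiff and orange for Day4, and on both scales the Day4 bars lie below the Undiff bars, at 5.56% and 5.64% against 6.37% and 6.34% on the left.

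Most members moved little and downwards. A member was called a DEG, in either direction, when its adjusted p in edgeR's quasi-likelihood test (Benjamini-Hochberg over all 19891 genes) was at most 0.05, its log2 fold change was at least 1 in size and its normalized counts averaged 5 or more. By this rule 4 members fell (Rpl10l, Rpl39l, Rpl3l and Rps27l), against a background of 20.6% of all genes. A single member rose, Rpl34, against 22.2% of all genes. With the p threshold alone, 58 members were lower in Day4 (background 35.2%) and 8 higher (background 36.7%). Among the 16472 genes that averaged 5 or more normalized counts, 42.5% were lower and 44.3% higher. The median log2 fold change over the 80 members that averaged 5 or more normalized counts was -0.25, beside 0.03 over all genes of that minimum. Rpl26 had no count in any library.

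The ordinary members, without the paralogues Rpl3l, Rpl10l, Rpl39l, Rps27l and Rps4l and with normalized counts averaging 100 or more, were 72 genes. Their log2 fold changes ran from -0.80 to 0.48 with a median of -0.24, a drop of 15.1%. With edgeR 0 of the 72 were DEGs and with DESeq2 0, whereas 33.1% of the 2571 genes with a mean of at least 100 CPM were DEGs with edgeR. An unadjusted p under 0.05 in edgeR was found for 60 of the 72. This is no excess, since by adjusted p alone 54.5% of the 2571 genes were lower and 37.1% higher. At the p threshold alone, 53 of the 72 were lower (background 54.5% of those 2571 genes) and 7 higher (background 37.1%). Between -0.5 and 0.5 lay 65 of the 72, or 90.3%, against 40.4% of the genes with at least 100 CPM, whose own median was -0.20. In 56 of the 72 the Day4 libraries both lay under the Undiff pair (background 56.9%), and in 9 they lay over it (background 39.2%). As a description without a test, 73.6% of the 72 were thus lower at the p threshold and 9.72% higher, their median was -0.24 beside -0.20 for abundant genes in general, and a larger share of them lay near 0. Large subunit genes had a median of -0.27, with 34 of 43 lower and 4 higher, and small subunit genes a median of -0.20, with 19 of 29 lower and 3 higher.

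**Figure D2:**
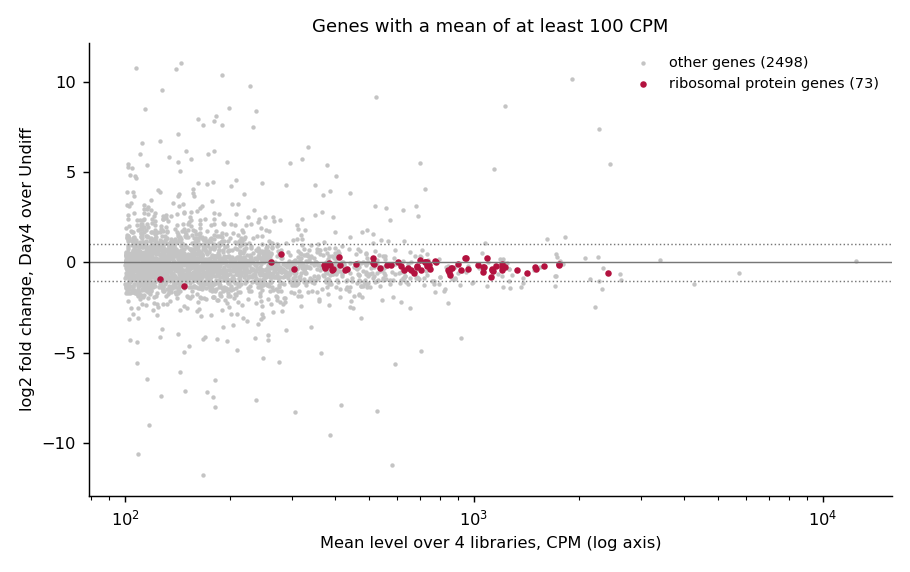
Log2 fold change of Day4 over Undiff (y axis) against the mean level in CPM (log x axis, not divided by length) for the 2571 genes with a mean of at least 100 CPM. Each point is 1 gene, red for the 73 ribosomal protein genes among them, and dotted lines mark a log2 fold change of 1 in either direction. The red points form a narrow band around a median slightly below 0, and Rps27l is the only red point below the lower dotted line.

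**Figure D3:**
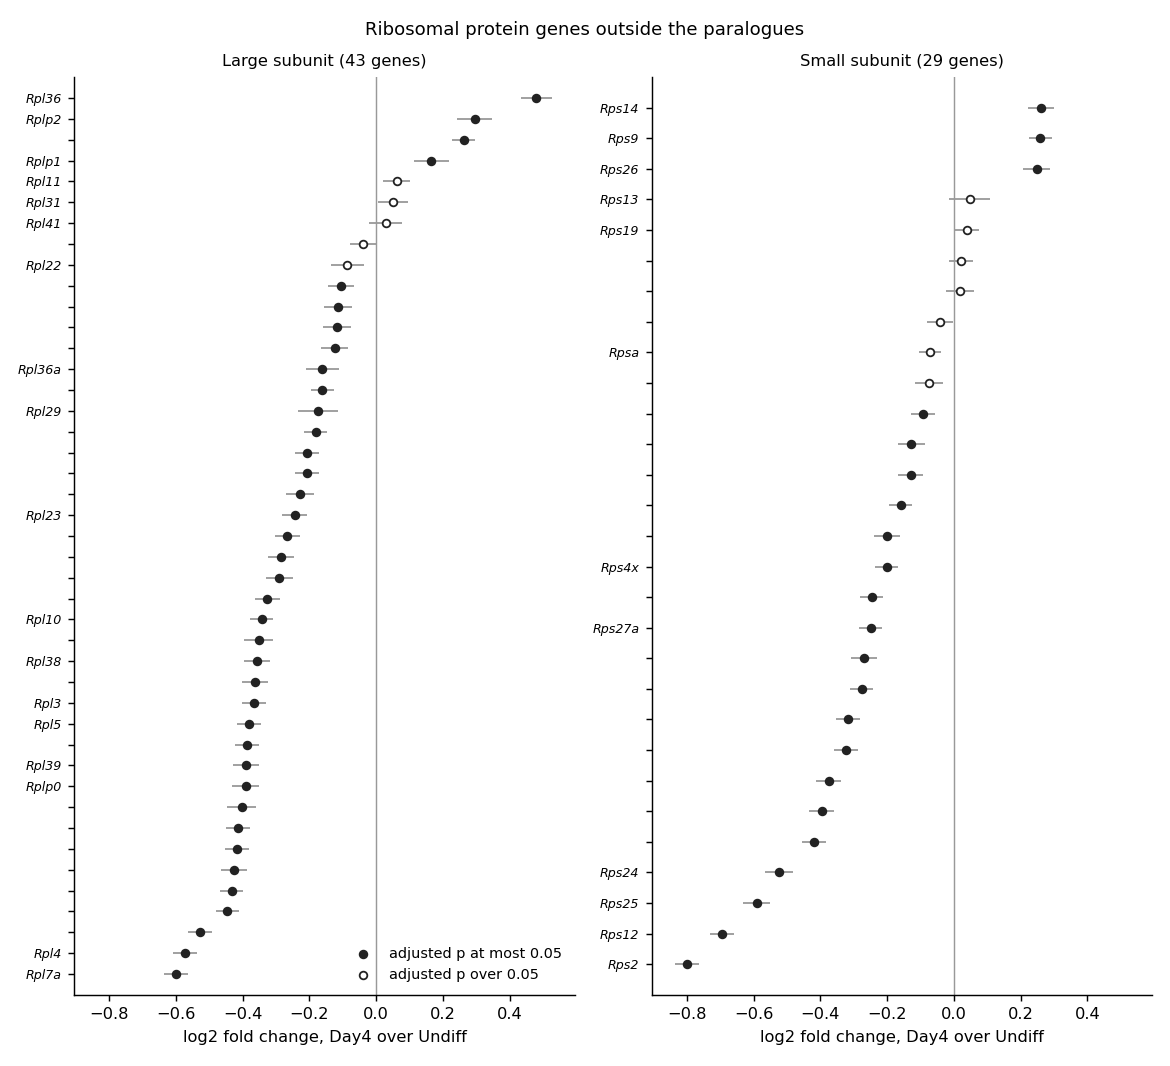
Log2 fold change of Day4 over Undiff for the 72 ordinary members, large subunit left and small subunit right. Points are the edgeR estimates with their standard errors, filled where the adjusted p is at most 0.05, and the members described in the text are labelled. Rps2 is lowest at -0.80 and Rpl36 highest at 0.48.

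The small subunit held the 2 ordinary members that fell most. Rps2, a protein near the mRNA entry channel, had 54032 and 53232 normalized counts in Undiff and 31534 and 30092 in Day4. Its log2 fold change was -0.80 ± 0.04 (SE), and its level fell by 42.6%, with an adjusted p of 1.82e-10 in edgeR's quasi-likelihood test. It lies at chr17:24718116-24721929 on the plus strand (GRCm38), and the genes Snhg9, Snora64 and Snora78 overlap it. Rps12, a protein of the head of the small subunit, fell from 39181 and 40039 to 24075 and 24863 normalized counts, a log2 fold change of -0.69 ± 0.04. The states did not overlap in either gene. Rps25, also of the head and known for a role in initiation at internal ribosome entry sites, went from 30570 and 30353 to 19609 and 20816. Its log2 fold change was -0.59 ± 0.04. Rps24, whose mRNA has alternative 3′ exons, went from 46105 and 47918 to 31492 and 33876 normalized counts, with a log2 fold change of -0.52 ± 0.04. Of the 14 members listed as part of the head of the small subunit, 10 were lower at the p threshold (background 35.2% of all genes and 54.5% of those with at least 100 CPM), 4 were past it in neither direction, and the median was -0.22.

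In the large subunit, Rpl7a and Rpl4 fell most among the ordinary members. Rpl7a had 65214 and 63685 normalized counts in Undiff and 41597 and 43473 in Day4, a log2 fold change of -0.60 ± 0.04. Rpl4, which lines the exit tunnel with a long loop, had 110021 and 107907 normalized counts in Undiff and 71469 and 75083 in Day4. Its log2 fold change was -0.57 ± 0.04, and its Day4 libraries lay well below the Undiff ones. Among the 8 counted genes listed for the exit tunnel, 6 were lower at the p threshold and 2 past it in neither direction, with a median of -0.36 (same background of 35.2% and 54.5%). Rpl31, at the rim of the tunnel, was at 21347 and 23215 in Undiff and at 22734 and 23393 in Day4, and these values overlap. Rpl22, an RNA-binding protein of the same region, was at 19231 and 20660 in Undiff and at 17998 and 19563 in Day4. The states overlap here too, and the adjusted p was 0.121 (edgeR's quasi-likelihood test), but 0.0361 with DESeq2.

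A small group rose. Rpl36, a large subunit protein, had 9016 and 8423 normalized counts in Undiff and 12545 and 11783 in Day4. Its log2 fold change of 0.48 ± 0.05, or 39.4% more, was the highest of the ordinary members (adjusted p = 5.62e-07, edgeR's quasi-likelihood test). Annotated transcripts of other genes share 54.4% of its windows of read length. Rps14, Rps9 and Rps26 of the small subunit rose by 19.8%, 19.6% and 18.7%, with log2 fold changes of 0.26, 0.26 and 0.25, and no Day4 library of these genes overlapped an Undiff library. Rps14 is the gene whose loss underlies the anaemia of the 5q- syndrome, and Rps26 sits where the mRNA leaves the small subunit. These increases depend on the scale, and with the summed member counts as library size all were larger by about 0.25.

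The stalk of the large subunit recruits the elongation factors, with Rplp0 as its base and pairs of Rplp1 and Rplp2 as its arms. Base and arms moved in opposite directions. Rplp0 went from 49395 and 46388 normalized counts to 37245 and 35814, a log2 fold change of -0.39 ± 0.04. Rplp2 went from 13780 and 13744 to 17984 and 15814, a log2 fold change of 0.30 ± 0.05. Rplp1 had 24965 and 24219 normalized counts in Undiff and 29435 and 25734 in Day4, a log2 fold change of 0.17 ± 0.05. For both arm genes the first Day4 library was well above the second. Without it the log2 fold change of Rplp1 was 0.07 and no longer past the threshold (adjusted p = 0.316, edgeR's quasi-likelihood test). Rpsa, a small subunit protein also known as a laminin receptor, differed by -0.07 ± 0.03 with an adjusted p of 0.0731 (edgeR's quasi-likelihood test), but 0.0114 with DESeq2.

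Rpl5 and Rpl11 form with 5S ribosomal RNA the complex that binds Mdm2 when ribosome assembly is disturbed. Rpl5 fell from 47916 and 47961 to 35852 and 37742 normalized counts, a log2 fold change of -0.38 ± 0.04. Rpl11 was at 28216 and 28558 in Undiff and at 28600 and 30610 in Day4, a difference of 0.06 ± 0.04 that was not past the threshold (adjusted p = 0.185, edgeR's quasi-likelihood test). Rpl38, known for its part in the translation of Hox mRNAs and in axial patterning, fell from 12740 and 12945 to 10160 and 9892, a log2 fold change of -0.36 ± 0.04. Rps19, the gene most often mutated in Diamond-Blackfan anaemia, was at 27185 and 26768 in Undiff and at 27532 and 27909 in Day4, a log2 fold change of 0.04 ± 0.04. Of the 18 counted genes listed for that anaemia, 9 were lower, 1 (Rps26) higher and 8 past the threshold in neither direction, with a median of -0.10, beside 54.5% lower among all genes with at least 100 CPM.

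Levels between genes can be compared only per length, and the coding length was used, which leaves out the untranslated ends. The 72 ordinary members had a median of 1631 CPM per kilobase in Undiff and 1480 in Day4. Rpl41, whose coding sequence is 75 bases, was highest on this scale, with 10051 ± 599 CPM per kilobase (SD, n = 2) in Undiff and 10731 ± 613 in Day4. Rpl23 followed with 3104 ± 82.0 CPM per kilobase in Undiff and 2744 ± 43.1 in Day4, then Rpl39 with 3096 ± 21.7 and 2474 ± 87.1. In Undiff these 2 did not differ beyond their spread, nor did Rps24, with 3075 ± 73.2 in Undiff and 2239 ± 110 in Day4. Rps27a, whose protein is made as a fusion with ubiquitin, had 2726 ± 48.3 and 2402 ± 6.41. At the low end Rpl29 had 121 CPM per kilobase in Undiff and 112 in Day4, and Rps13 had 554 and 600. Of the 72 genes, 71 were above 300 CPM per kilobase in both states, all but Rpl29. Its transcript shares windows with 27 other genes. That of Rpl21 does so with 39, at 1524 CPM per kilobase in Undiff and 1220 in Day4. Whether shared windows bear on the level of Rpl29 was not tested. The order depends on the length used, since fragments of the untranslated ends are counted too. Per length of the annotated transcript, an alternative added after the data were seen, Rps12 was highest in Undiff with 2093 ± 24.8 CPM per kilobase (SD, n = 2). On that scale Rpl41 had 1725 ± 103 in Undiff, in place 9 of the 72, and 1842 ± 105 in Day4, the highest there. Rpl39 moved to place 57 in Undiff with 774 ± 5.43 CPM per kilobase of transcript and Rpl23 to place 25 with 1231 ± 32.5, while Rpl29 was lowest on both scales.

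The largest changes among the members with at least 5 normalized counts were in the paralogues Rpl10l, Rpl39l and Rpl3l. Rpl10l and Rpl39l are autosomal copies of the X-linked genes Rpl10 and Rpl39 that are known for their role in sperm formation. Rpl3l is known from heart and skeletal muscle, and Rps27l is a target of p53. Rpl10l lies at chr12:66283379-66284401 on the minus strand as a single exon, and Rpl39l at chr16:10170226-10174911 on the plus strand, whereas Rpl39 lies at chrX:37082520-37085402 on the minus strand (GRCm38, GENCODE vM21). The reads can tell the copies apart, as the coding sequences of Rpl39l and Rpl39 show, here printed 5′ to 3′ with the 23 of 153 bases that differ in capitals.
Rpl39l: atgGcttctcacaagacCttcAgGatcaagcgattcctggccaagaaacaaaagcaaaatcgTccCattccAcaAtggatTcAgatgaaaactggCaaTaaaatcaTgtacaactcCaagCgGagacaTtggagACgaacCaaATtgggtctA
Rpl39: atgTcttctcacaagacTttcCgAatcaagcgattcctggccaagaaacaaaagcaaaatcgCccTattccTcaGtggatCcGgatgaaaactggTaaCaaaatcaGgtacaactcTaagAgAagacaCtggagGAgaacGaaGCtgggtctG
The longest stretch they share is 38 bases, and they are 85.0% identical. Rpl10l and Rpl10 are 84.7% identical over 642 bases with a longest shared stretch of 23, Rpl3l and Rpl3 are 74.3% identical, and Rps27l and Rps27 are 76.7% identical. No window of read length in these 4 paralogues occurred in the annotated transcripts of another gene.

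Rpl10l had 859 and 732 counts in Undiff and 4 and 9 in Day4. This is 151-fold less on the fitted scale, a log2 fold change of -7.24 ± 0.17 (adjusted p = 2.15e-13, edgeR's quasi-likelihood test). Rpl39l had 493 and 408 counts in Undiff and 13 and 12 in Day4, 44.8-fold less, at a log2 fold change of -5.49 ± 0.18 (adjusted p = 4.94e-12, edgeR's quasi-likelihood test). Rpl3l had few counts, 62 and 46 in Undiff and 3 in each Day4 library, which is a ratio of 22.7 with a counting interval of 10.1 to 63.1 (95%, exact). In each of these 3 genes the Undiff libraries lay far above the Day4 libraries. Their parents moved as the ordinary members did, with log2 fold changes of -0.34 for Rpl10, -0.39 for Rpl39 and -0.37 for Rpl3. Of the fragments counted on Rpl10 and Rpl10l together, the paralogue held 2.15% (exact 95% interval 2.01 to 2.30%) and 2.13% in Undiff, and 0.0131% and 0.0217% in Day4. For Rpl39l beside Rpl39 the shares were 2.77% and 2.60% in Undiff and 0.101% and 0.0648% in Day4. These shares are not per length, and Rpl10 itself shares 91.6% of its windows with other genes, so that they hold for the counted fragments only.

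Rps27l had 7682 and 8196 normalized counts in Undiff and 3263 and 3159 in Day4, a log2 fold change of -1.31 ± 0.05 (adjusted p = 1.70e-11, edgeR's quasi-likelihood test). Its parent Rps27 was nearly uncounted, at 15 and 16 counts in Undiff and 27 and 28 in Day4, and 98.4% of its windows occur in other genes. Rps4l, which the annotation gives as a transcribed processed pseudogene at chr6:148354656-148355598 on the plus strand, inside Tmtc1 on the other strand, had 6305 and 6027 normalized counts in Undiff and 3554 and 3066 in Day4. Its log2 fold change of -0.90 ± 0.06 did not reach the fold limit of the DEG rule. It made up 9.00% and 8.65% of the fragments counted on Rps4l and Rps4x in Undiff and 6.11% and 5.18% in Day4. All 5 paralogues were lower in Day4 at the p threshold, and their median log2 fold change was -4.44. The background was 35.2% of all genes and 54.5% of those with at least 100 CPM.

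**Figure D4:**
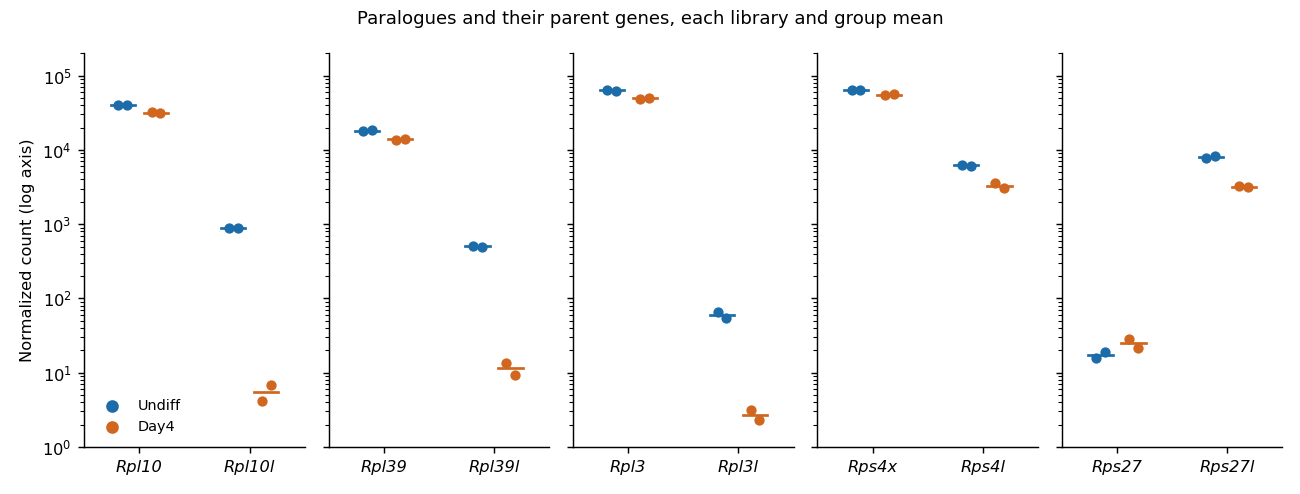
Normalized counts (log axis) of the 5 paralogues and their parent genes. Points are libraries, bars are means of 2 libraries, blue for Undiff and orange for Day4, to be compared within a gene because the values are not per length. Rpl10l, Rpl39l and Rpl3l fall by over 1 step of the log axis, while Rpl10, Rpl39 and Rpl3 shift only slightly.

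Rpl26, Rpl30, Rpl34 and Rps27 had at most 28 counts in every library, although their proteins are part of every ribosome. Rpl34, the member called a DEG upwards, had 5 and 4 counts in Undiff and 21 and 16 in Day4, a log2 fold change of 1.68 ± 0.55 (adjusted p = 0.0133, edgeR's quasi-likelihood test). The states did not overlap, but the call was lost without the first Day4 library (log2 fold change 1.27, adjusted p = 0.0905, edgeR's quasi-likelihood test) and with DESeq2 (adjusted p = 0.104). Rpl30 had 9 and 6 counts in Undiff and 3 and 4 in Day4 and was not called. Only uniquely aligned fragments were counted. Of the 81 members, 35 share over 50% of their windows of read length with the annotated transcripts of other genes. The median over all members was 41.1%, and the types of these other genes were not counted. For the nearly uncounted genes the shared percent was 35.9% in Rpl26, 53.2% in Rpl30, 30.5% in Rpl34 and 98.4% in Rps27. The well counted Rpl10 had 91.6%. Whether shared windows set the low counts was not tested. Over the 72 ordinary members the shared percent and the log2 fold change had a Spearman correlation of -0.04. Among the 43 well counted members with at most 50% shared windows, 31 were lower and 6 higher at the p threshold, with a median of -0.27. The background was 54.5% lower and 37.1% higher among genes with at least 100 CPM. These 43 are not only ordinary members, as they include paralogues such as Rpl10l, Rpl39l and Rps27l.

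The promoters share a sequence feature that the choice by name did not use. RefSeq gave a promoter (GRCm38.p6) for 60 of the 81 members. A run of at least 8 pyrimidines starting with C was searched on the strand that reads as the mRNA, within 50 bases of the annotated start on either side. It was found in 49 of the 60, or 81.7%, against 28.7% of all 27025 gene symbols with a promoter and 30.4% of the 2017 such symbols with at least 100 CPM. The longest run of each, or the first of equally long ones, is shown in capitals, with 30 bases before and 30 after the start, 5′ to 3′. They are given as examples, chosen with the values known, for well counted members that rose or fell and hold the whole run in that stretch, for the paralogues Rps27l and Rpl39l, and for Rpl10l, which has none.
Rps12: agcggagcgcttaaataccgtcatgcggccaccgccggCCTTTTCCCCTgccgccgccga
Rps25: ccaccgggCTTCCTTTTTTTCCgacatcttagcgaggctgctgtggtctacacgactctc
Rpl7a: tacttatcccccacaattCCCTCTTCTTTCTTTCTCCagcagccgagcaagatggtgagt
Rplp2: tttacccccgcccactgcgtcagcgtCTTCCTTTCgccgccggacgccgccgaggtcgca
Rps9: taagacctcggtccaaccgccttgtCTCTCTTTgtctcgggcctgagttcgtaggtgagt
Rps26: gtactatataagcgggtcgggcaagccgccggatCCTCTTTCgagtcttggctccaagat
Rps27l: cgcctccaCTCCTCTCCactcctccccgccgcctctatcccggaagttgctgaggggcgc
Rpl39l: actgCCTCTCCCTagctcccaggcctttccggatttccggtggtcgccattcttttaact
Rpl10l: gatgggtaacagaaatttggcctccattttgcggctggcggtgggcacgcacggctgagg
Their positions are chr10:23787180-23787239 (minus strand), chr9:44407684-44407743, chr2:26910777-26910836, chr7:141447621-141447680, chr7:3704011-3704070, chr10:128626477-128626536 (minus), chr9:66946056-66946115, chr16:10170198-10170257 and chr12:66284372-66284431 (minus), the others on the plus strand. Members that fell (Rps12, Rps25, Rpl7a) and members that rose (Rplp2, Rps9, Rps26) both carried a run. The 43 ordinary members with a run had a median log2 fold change of -0.27 and a range of -0.80 to 0.30, and the 10 without had a median of -0.23 and a range of -0.43 to 0.05, which overlap. The match is by letters near an annotated start and is no measurement of the 5′ ends in these cells.

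The genes otherwise lie scattered. The 81 members were on 19 chromosomes, with at most 14 on one of them, chromosome 7. They had a median of 5 exons, 23 overlapped a counted small nucleolar RNA or microRNA gene, and 80 were annotated as protein coding.

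To see changes within the set, the fit was repeated with the summed member counts as the size of each library, which raised log2 fold changes by about 0.25. On this scale 5 members passed the DEG rule, against 43.6% of all genes, and these were Rpl10l, Rpl39l, Rpl3l, Rps27l and Rpl34. Of the 72 ordinary members 0 passed it in edgeR. An unadjusted p under 0.05 in edgeR was found for 55 of them, and the share of all genes at this limit was not counted. At the p threshold 28 of them were higher (background 42.7%) and 25 lower (background 29.5%) than the set as a whole. Rps2 was at -0.55, Rps12 at -0.45, Rplp2 at 0.55 and Rpl36 at 0.73. This scale centres the set by its construction and moves all members by nearly the same amount. The order of the members could therefore hardly change, and the counts of higher and lower members depend on the zero chosen.

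Ribosomal protein genes that the naming rule leaves out were lower in 5 of 7 cases and higher in 2 at the p threshold (background 35.2% and 36.7%). Of all genes that averaged 5 or more normalized counts, 42.5% were lower and 44.3% higher. Gnb2l1, which encodes the scaffold protein RACK1, went from 99288 and 94630 normalized counts to 77418 and 79729, a log2 fold change of -0.30. Rpl36al, a copy of Rpl36a, went from 7139 and 7207 to 3967 and 4082 (-0.83), and Rpl7l1 fell by 0.55 on the log2 scale, Rpl22l1 by 0.36 and Rps3a1 by 0.19. Rpl36al fell from 32.3% and 31.5% of the fragments on itself and Rpl36a to 23.4% and 22.1%. Fau, which encodes a small subunit protein fused to a ubiquitin-like protein, rose from 12160 and 12460 to 20842 and 19876, a log2 fold change of 0.73. The direction was thus mixed here too, and no member of this group passed the fold limit.

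The genes that build ribosomes had a lower median than the genes of the ribosome itself. The lists that follow are to be read against all genes, of which 35.2% were lower and 36.7% higher at the p threshold and 20.6% were DEGs that fell. Among the 16472 genes that averaged 5 or more normalized counts, the minimum used for the lists, 42.5% were lower and 44.3% higher. Of the genes with at least 100 CPM, 54.5% were lower and 37.1% higher. Of 54 ribosome assembly genes in the files, 43 were DEGs that fell, 52 were lower and 1 higher at the p threshold, and the median log2 fold change was -1.39. Heatr1, of the small subunit processome, went from 13928 and 14102 normalized counts to 1862 and 2012 (log2 fold change -2.85 ± 0.05). Ddx21, a nucleolar helicase, went from 28328 and 30103 to 5021 and 5203 (-2.51), and Rrp12 and Nat10 fell by 2.32 and 2.31 on the log2 scale. In none of these did the states overlap. For RNA polymerase I, which transcribes ribosomal RNA, 14 of 14 genes were lower at the p threshold and 6 were DEGs, with a median of -0.72. Polr1b, its second largest subunit, went from 6014 and 6589 to 1412 and 1450 (-2.14), Polr1e was at -1.68, Taf1d at -1.64 and the initiation factor Rrn3 at -1.53. Of 10 chaperones and importins of ribosomal proteins, 9 were lower and 1 higher, with a median of -0.96. Ipo5, Ltv1, Ipo7 and Kpnb1 had log2 fold changes of -1.59, -1.42, -1.24 and -1.11.

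Other lists were mixed. Of 19 TOP mRNAs of the translation machinery and beyond, 12 were lower and 5 higher at the p threshold, with a median of -0.33. Pabpc1, the poly(A) binding protein, was at -1.31, and Hnrnpa1 at -1.20, whereas Vim, an intermediate filament of mesenchymal cells, rose from 2756 and 2914 to 14825 and 15087 normalized counts (5.28-fold). Most fibroblast markers above were higher in Day4 too, and a link between them and Vim was not tested. Of 15 genes of mTORC1 signalling and the LARP family, 9 were lower and 6 higher, with a median of -0.36. Larp1, which binds TOP mRNAs, went from 27438 and 27398 to 7884 and 8438 normalized counts (-1.75 ± 0.04), Larp1b was at -2.74, and Eif4ebp1, which holds back cap-dependent initiation, went from 8354 and 8270 to 1829 and 1959 (-2.13). Akt1s1, an mTORC1 inhibitor, rose from 560 and 592 to 2365 and 2127 (1.96 ± 0.07). In the p53 list, Mdm4 fell by 1.08 on the log2 scale, and of 4 genes 3 were lower and 1 higher. Of the 77 mitochondrial ribosomal protein genes, 48 were lower and 13 higher at the p threshold and 9 were DEGs, all lower. Their median was -0.28 and their range -2.13 to 0.89. The background was 35.2% lower, 36.7% higher and 20.6% fallen DEGs of all genes. Among genes that averaged 5 or more normalized counts, 42.5% were lower and 44.3% higher. Mrps18b, Mrpl15, Mrps24 and Mrpl35 were at -2.13, -1.63, -1.23 and -1.21. The 72 ordinary cytoplasmic members had a similar median of -0.24 and a narrower range of -0.80 to 0.48. Over all 80 counted members, with the paralogues and the genes of few counts, the range was wider, at -7.24 to 1.68.

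**Figure D5:**
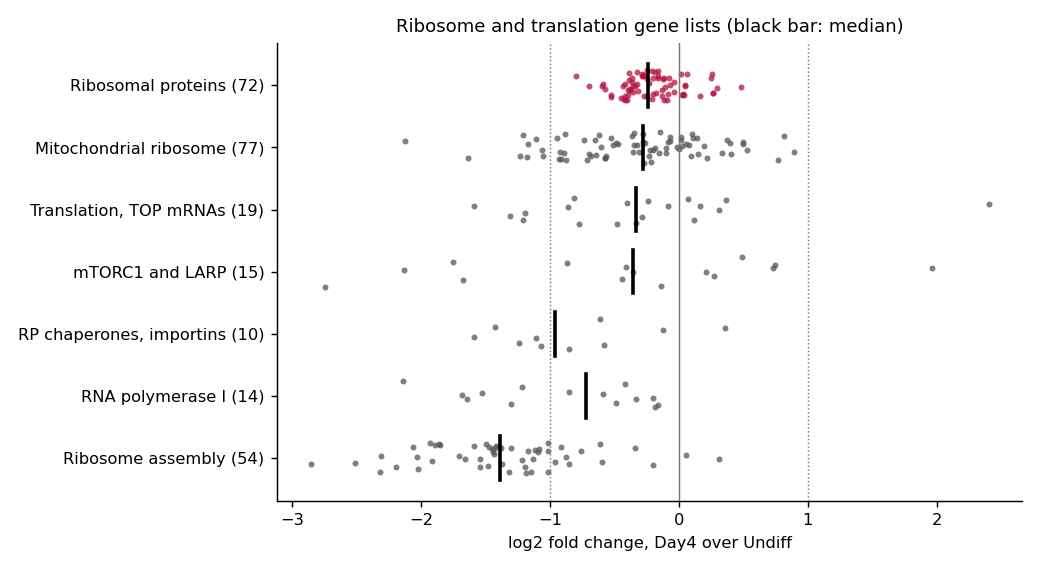
Log2 fold change of Day4 over Undiff for the 72 ordinary ribosomal protein genes (red) and for 6 lists of related genes, with the number of genes in brackets. Points are genes, black bars medians and dotted lines a log2 fold change of 1 in either direction. The medians run from -0.24 for the ribosomal proteins to -1.39 for ribosome assembly.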

How the data were processed

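The polyadenylated RNA of 2 Undiff and 2 Day4 samples of R1 cells was sequenced by the authors as paired Illumina TruSeq reads, and condition and replicate were taken from the sample titles. The authors used cutadapt for trimming, STAR 2.4.2a for alignment to mm10 and htseq-count to give uniquely aligned fragments per gene. The deposited values are these raw counts per gene symbol, without normalization. The methods say that strandedness was taken into account and name only the Direct RNA samples as strand-specific, so that the TruSeq counts were by implication made without strand. The option itself is not given in the sources used here for these files, and counts of overlapping genes on opposite strands are uncertain. Lines of the files that name no gene were left out. Fragments on no gene made up 7.50% to 13.2% of the uniquely aligned fragments and fragments on more than 1 gene 1.84% to 1.91%.

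After TMM scaling, counts were tested with the quasi-likelihood functions of edgeR 4.0.16 (glmQLFit with its newer method, glmQLFTest) in R 4.3.3, on the 19891 symbols with a count, with Benjamini-Hochberg adjustment. The version of the method was set after fits with both had been seen, and the earlier one is an alternative. The thresholds of a DEG were an adjusted p of 0.05, a log2 fold change of 1 in size and a normalized count of 5 on average, as in the methods of the paper, which used DESeq2. Normalized counts refer to a library of the geometric mean effective size, and the standard error is the log2 fold change divided by the square root of F. The ± after a log2 fold change is this standard error. On simulated counts for 19530 genes of this comparison, the test recovered 200 of 200 genes with a set log2 fold change (1, 2 or 3 in size) and called 8 unchanged ones. The simulation gave all genes the same dispersion, changed only these 200 and drew them above a minimum level. It is a check of the code, and its figures do not carry over to genes of few counts or to the many changes here.

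The alternatives were DESeq2 1.42.0, its size factors, library totals, filterByExpr, a replicate block, the summed member counts as scale and leaving out each library. The totals of 32099074 to 47730944 counts set the precision, and 3 counts were taken as the floor. Intervals cover counting error only. Windows of the length of a read were compared between the annotated transcripts of GENCODE vM21, on the assembly that mm10 stands for, and the positions are from it. The promoters are those of RefSeq. The rule for the members used names and no measured value, but members and gene lists were chosen with earlier results of these data known. The members named were the DEGs, the 8 highest and 8 lowest log2 fold changes with at least 10 CPM, the paralogues and parents, the stalk and Rpsa, 7 members chosen for their known roles and the 5 highest and 5 lowest levels per length. In the other lists, up to 4 DEGs with the largest change were named, and the genes of ribosomal proteins outside the naming rule. Some items that these rules name are not reported here.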

Additional observations from a re-analysis of the deposited data

How the results depend on the processing

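The count of 4 members called as fallen DEGs was the same under each alternative fitted with all 4 libraries, and 4 to 5 when 1 library was left out. The 1 member called upwards, Rpl34, gave 0 with DESeq2 and 0 to 1 when 1 library was left out. The lower members at the p threshold were 49 to 60 and the higher ones 6 to 9 with 1 library left out, and the list counts of the other lists were 69 to 73 DEGs in all. Without the members of over 50% shared windows, an alternative added after the data were seen, 32 of the remaining 46 were lower (background 35.2% of all genes). With the summed member counts as scale, which centres the set by its construction, 29 of all members were higher and 30 lower. The background on that scale was 42.7% and 29.5%, and the median of the members became 0.0017. Of the members named under the rules given above, Rpl22 (0.1626), Rpl23 (0.0046), Rpl29 (0.0729), Rps27a (0.0002), Rps4x (0.0471) and Rpsa (0.1779) changed sign there. Rpl41 changed sign with DESeq2 (-0.0097), its size factors (-0.0095) and filterByExpr (-0.0027). The median log2 fold change was -0.29 with DESeq2 and with its size factors, -0.18 with library totals, -0.28 with filterByExpr, where fewer low genes were tested, and -0.30 to -0.23 with 1 library left out. The drop of the member share was -0.366 points over all uniquely aligned fragments, -0.671 without the 2 members with the most counts, -0.363 in the 46 members of at most 50% shared windows, which start from a smaller share (3.53% to 3.17%, a ratio of 0.897 against 0.881 for all members), and -0.799 to -0.713 with 1 library left out. With 1 library left out, 5 of the members named in the text that were not called with all 4 libraries changed sign, Rpl11 at -0.0194 to 0.1087, Rpl31 at -0.0092 to 0.1118 (called without the second Undiff library, adjusted p = 0.0141 in edgeR), Rpl41 at -0.0646 to 0.0939, Rps13 at -0.072 to 0.1287 and Rps19 at -0.0008 to 0.0505. The cause of these shifts was not tested. With a replicate block the fit gave 58 lower and 8 higher members and 4 fallen and 1 risen DEG, which changed none of these counts. Deviations of same-numbered libraries correlated by 0.0018 over 12349 genes, so that the numbers were not taken to pair the samples. The earlier quasi-likelihood method and a robust prior, both added after the data were seen, also gave 58 and 8. With 2 libraries per state, the spread between replicates rests on 2 degrees of freedom before it is shared between genes.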
